A study of Mus musculus with 6 samples.

Results

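The 9 genes described here encode what a cell needs to sense interleukin 17 (IL-17) and interferon gamma (IFNγ): the IL-17 receptor chains Il17ra, Il17rc and Il17rd, the IL-17 adaptor Traf3ip2, the IFNγ receptor chains Ifngr1 and Ifngr2, the kinases Jak1 and Jak2, and the transcription factor Stat3. They were taken by name from the 25722 genes listed in the count tables, and each of the 9 was found. The choice of the 9 was made with earlier results of these data known. The cultures measured are labelled as mouse bone marrow mesenchymal stromal cells (BMSCs), and in the study such cells were stimulated with IL-17 and IFNγ in other experiments. The labels of the 6 libraries here name neither cytokine, so the levels are those of cultures without added IL-17 or IFNγ as far as the labels say. Whether retinoic acid (RA) changed them was the question of the comparison.

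The cells came from wild-type C57BL/6 mice and were grown at low oxygen (5% O2, with 5% CO2) in a low-glucose medium. It held a ROCK inhibitor at 10 µM, antibiotics at 2% and serum at 20%. The RA group (3 libraries) received 1 µM all-trans retinoic acid for 48 h and the control group (3 libraries) received its solvent DMSO. The labels give the same other culture conditions for both groups. The labels speak of 2 biological replicates while 3 libraries were deposited per group, and the paper's methods give a lower dose and a shorter exposure than the labels, so p-values measure only the spread between these libraries, which may be technical. The sex and age of the mice, and whether animals were pooled, were not given in the sources used here.

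Libraries held 14737636 to 18511905 counted reads, and 3 reads correspond to 0.162 to 0.204 CPM, the count scaled to a fixed library total. The RA check gene Cyp26b1, which encodes an RA-degrading enzyme, was at 4.97, 5.96 and 4.68 CPM in control and 123.7, 109.6 and 87.1 CPM after RA (log2 fold change 4.35 ± 0.19 SE, edgeR adjusted p = 0.00207). Apart from treatment, the libraries fell into 2 sets along the first principal component, which held 57.6% of the variance of 1000 genes and was computed without the 9 genes and the pathway lists. Set 1 held control 2, RA 1 and RA 2, and set 2 held control 1, control 3 and RA 3. The labels name no batch that matches these sets. The sets were read from the counts of these same libraries. Fits with library set as a covariate do not allow for that, so their p-values are descriptive only. The summed level of 14 macrophage markers, all with reads, was 20732 to 23717 CPM across libraries, against 1688 to 4434 CPM for 12 mesenchymal stromal markers. Of the stromal list, 10 of 12 genes passed the filter on low counts, with Cxcl12 at 368.1 to 577.9 CPM, Col1a1 at 414.3 to 1648 CPM and Pdgfrb at 60.3 to 139.9 CPM. Nt5e had 2 to 21 reads in a library, and Thy1 had at most 7 and was at 0 in RA 3. Thus transcripts of both lists were present, and the macrophage list was the more abundant in each library. Markers of T cells summed to 0.389 to 3.30 CPM and markers of neutrophils to 1.52 to 2.73 CPM. Because these are bulk samples, fewer cells of a type and less RNA per cell cannot be told apart.

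IL-17A and IL-17F act through a receptor built from the common chain IL-17RA, encoded by Il17ra, and the chain IL-17RC, encoded by Il17rc. Both bind the adaptor Act1, the product of Traf3ip2, which recruits TRAF proteins and leads to NF-κB activity and to the stabilization of chemokine transcripts. IL-17RD, encoded by Il17rd and also known as Sef, is a related membrane protein best known as an inhibitor of fibroblast growth factor signaling. IFNγ binds IFNGR1, IFNGR2 joins, and the receptor-bound kinases JAK1 and JAK2 become active. STAT3 is driven mainly by cytokines of the IL-6 and IL-10 families through kinases of the JAK family. In stromal cells IL-17 is known to act with other inflammatory cytokines, and both receptors are broadly present on non-immune cells and on macrophages.

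For no gene of this machinery did the difference between RA and control pass the test. None of the 9 genes was called, a call being a fold of 1.5 or more together with an adjusted p below 0.05 (edgeR quasi-likelihood test, smallest adjusted p = 0.755). Of all 13842 genes tested 0.0433% were called, 0.0361% higher and 0.00722% lower after RA. All 9 had passed the filter on low counts. In a simulation with the spread seen between libraries of a group, this fit called 0% of genes changed 1.5-fold or 2-fold. The lack of a call thus says little about changes of that size. At an unadjusted p under 0.05 there was 1 of the 9, Il17rd, against 5.25% of all genes tested (2.89% higher and 2.36% lower), and by DESeq2 0 of the 9 were called, against 0.983% of all genes. For 7 of the 9, all but Il17rc and Il17rd, the 95% interval of the fold lay between 0.621 and 1.59. The estimates were positive for 3 genes and negative for 6, with a median log2 fold change of -0.17 compared to -0.02 over all genes tested. The largest estimates in each direction belonged to IL-17 receptor chains, Il17rd upward and Il17rc downward, whose promoters are shown for that reason. CpG sites are in capitals, and each stretch ends at the base before the annotated gene start (RefSeq promoter table, GRCm38.p6).
Il17rc promoter, chr6:113471205-113471426, + strand: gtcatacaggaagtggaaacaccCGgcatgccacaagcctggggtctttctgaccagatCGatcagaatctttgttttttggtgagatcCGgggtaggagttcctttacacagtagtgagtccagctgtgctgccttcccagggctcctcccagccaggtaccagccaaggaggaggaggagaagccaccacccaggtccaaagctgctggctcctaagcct
Il17rd promoter, chr14:27038751-27038940, + strand: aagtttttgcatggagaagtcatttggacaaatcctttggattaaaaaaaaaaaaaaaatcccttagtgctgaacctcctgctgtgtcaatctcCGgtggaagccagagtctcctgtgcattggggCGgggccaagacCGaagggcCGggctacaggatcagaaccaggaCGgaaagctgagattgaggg

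The Il17rc stretch of 222 bases had 3 CpG sites and 55.9% GC, and the Il17rd stretch of 190 bases had 5 CpG sites and 48.9% GC. In the 250 bases before the RefSeq start of the 7 genes in that table (Il17rc, Il17rd, Ifngr1, Ifngr2, Jak1, Jak2 and Stat3), both strands were searched for letters of known response elements. The gamma-activated site TTCNNNGAA, at which STAT dimers bind, was in 0 of the 7 windows and in 7.02% of 32851 promoters. The retinoid receptor half-site AGGTCA was in 0 of 7 and in 14.0% of promoters, and its direct repeats with spacers of NN or NNNNN, which contain that half-site, were in 0 of 7 and in 0.00913% of promoters each. The core of the interferon-stimulated response element was in 0 of 7 and in 2.98% of promoters. These counts say only that the letters are not in these windows.

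Compared per length of transcript, the transcripts of the IFNγ receptor stood far above those of the IL-17 receptor in these bulk samples. Which cells held them cannot be told from bulk values, and the macrophage markers summed higher than the stromal markers in each library. In control cultures the level in RPKM (the CPM divided by the kilobases of exon, mean ± SD, n = 3) was 48.2 ± 5.30 for Ifngr2, 41.9 ± 7.83 for Ifngr1 and 37.3 ± 2.64 for Jak1, whose ranges overlapped from one to the next. Stat3 at 22.8 ± 1.34 RPKM and Jak2 at 16.3 ± 3.80 RPKM came next, and neither range overlapped that of its neighbours in the order. Il17ra followed at 5.88 ± 0.0455 RPKM, Traf3ip2 at 3.32 ± 0.838 RPKM and Il17rc at 1.80 ± 0.90 RPKM, and the ranges of Traf3ip2 and Il17rc overlapped. Il17rd was lowest at 0.492 ± 0.0248 RPKM.

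The spread of levels placed the genes in separate parts of the expressed transcriptome. Over the 6 libraries Ifngr1 lay between the 89.2 and 93.3 percentiles of all genes tested, Ifngr2 between 91.2 and 93.6, and Jak1 between 89.4 and 92.8. Il17ra lay near the middle at 50.8 to 54.4, Il17rd at 12.2 to 19.5, and Il17rc spanned the widest band at 9.98 to 37.7. After RA the order was Jak1, Ifngr2 and Ifngr1 with overlapping ranges (42.7 ± 2.23, 42.3 ± 5.07 and 40.1 ± 7.92 RPKM), then Stat3, Jak2, Il17ra and Traf3ip2 as before. Il17rc (0.947 ± 0.615 RPKM) and Il17rd (0.741 ± 0.0935 RPKM) overlapped after RA. When the longest transcript gave the length, the first 3 in control were Ifngr1, Jak1 and Ifngr2, again overlapping, and the other places in the order were the same.

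**Figure D1:**
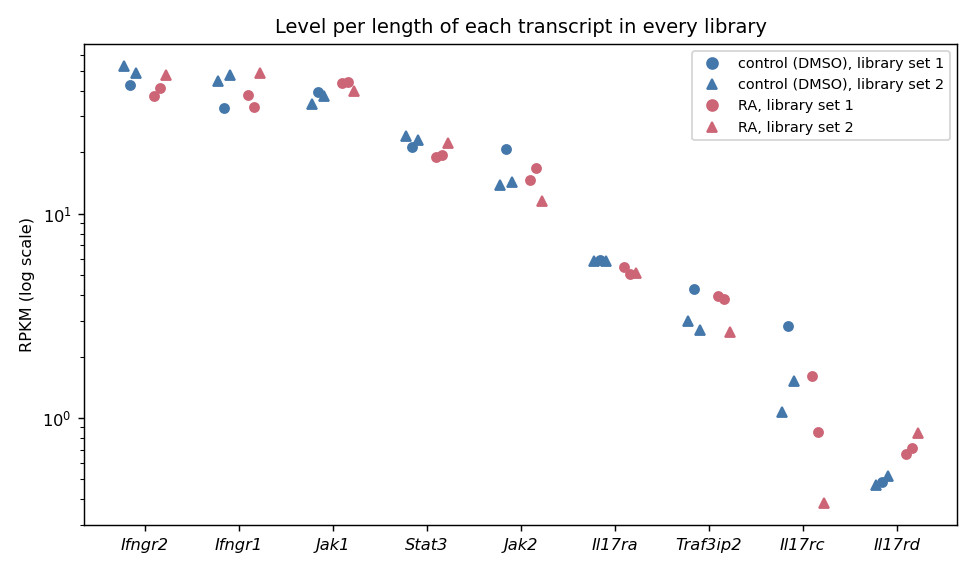
Level of each of the 9 transcripts in RPKM (log axis) in every library, ordered by the control mean, with color for treatment and marker shape for library set. Ifngr2, Ifngr1 and Jak1 share the top of the axis and Il17rc and Il17rd the bottom, where Il17rc spans 0.383 to 2.81 RPKM.

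Among the IL-17 receptor chains, Il17ra (chr6:120463247-120487559, plus strand) is the shared signaling chain. It was at 50.7, 51.4 and 50.7 CPM in control and at 47.7, 43.8 and 44.6 CPM after RA. All 3 RA libraries were below all 3 control libraries, and the control values were almost equal. The log2 fold change was -0.17 ± 0.10 (SE, 95% interval -0.41 to 0.07, edgeR adjusted p = 0.795), and the exact two-sided permutation test gave p = 0.1, the smallest that 3 against 3 libraries allow. When CPM were scaled by library size alone the groups overlapped.

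Il17rc (chr6:113471427-113483140, plus strand) encodes the chain that pairs with IL-17RA for IL-17A and IL-17F. Its counts were low, with 41, 141 and 59 reads in control and 77, 36 and 15 reads after RA. These were 2.87, 7.5 and 4.06 CPM in control and 4.28, 2.28 and 1.02 CPM after RA. Control 2 was highest and RA 3 lowest, and RA 1 was above 2 of the control libraries, so the groups overlapped. Its log2 fold change was -0.92 ± 0.57 (SE, 95% interval -2.28 to 0.44, edgeR adjusted p = 0.795), and the exact permutation p was 0.3. The estimate was -0.43 without control 2 and -1.52 without RA 1. RA was lower than control within both sets, with log2 differences of -1.23 in set 1 and -1.62 in set 2. With library set as a covariate the estimate was -1.39 ± 0.32 (SE, 95% interval -2.14 to -0.65, edgeR unadjusted p = 0.00285, adjusted p = 0.0959), which did not pass the threshold.

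Il17rc had the same order over the 6 libraries as the sum of the 12 stromal markers and as the sum of the collagen genes among them. How many of all genes tested share this order was not counted. The summed level of Col1a1, Col1a2 and Col3a1 was 1781, 3700 and 1953 CPM in control and 2604, 1459 and 1054 CPM after RA, and they made up 62.5% to 83.4% of the sum of the 12 stromal markers. The other 9 markers together were at 524.4, 734.8 and 594.5 CPM in control and 854.4, 757.9 and 633.7 CPM after RA, in another order than Il17rc. Within the list 5 estimates were positive and 5 negative, with a median log2 fold change of 0.01 (-0.21 with library set as a covariate). In the fit with the covariate 3 genes had an unadjusted edgeR p under 0.05 upward and 4 downward, against 15.1% of all genes in either direction. Cxcl12 was higher after RA in every library (log2 fold change 0.34, edgeR adjusted p = 0.795), as was Lepr (3.35, edgeR adjusted p = 0.292), while Ly6a was lower in every library (-0.90, edgeR adjusted p = 0.172). Lepr and Ly6a were called with library set as a covariate (edgeR adjusted p = 0.0064 and 0.0152), where 1.54% of all genes were. Lepr was low, with 7, 9 and 7 reads in control and 45, 48 and 139 reads after RA. The split of the list was made after the values were seen, and the part of stromal cell content in the Il17rc values was not tested.

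**Figure D2:**
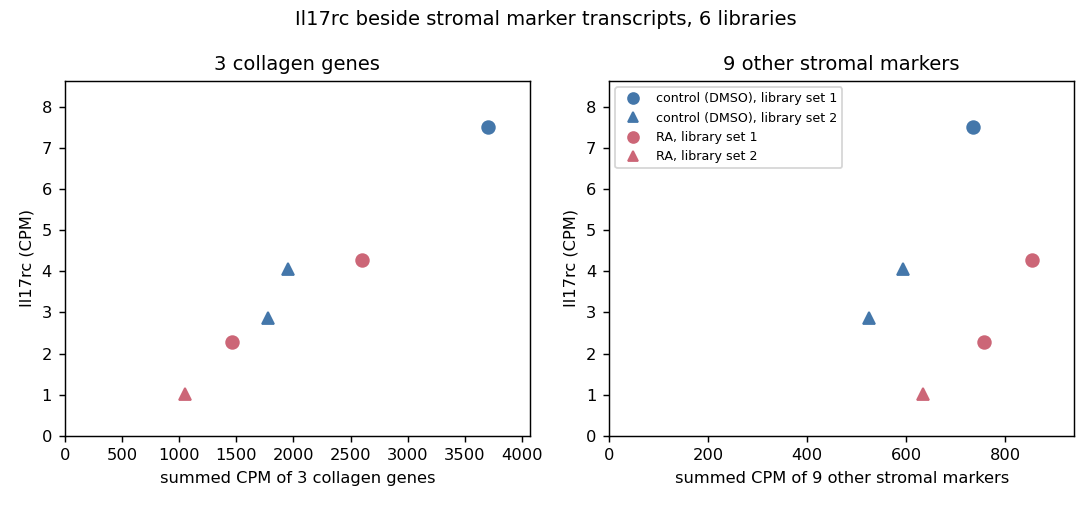
Il17rc in CPM against the summed CPM of 3 collagen genes (left) and of the 9 other stromal markers (right) in the 6 libraries, with color for treatment and marker shape for library set. Il17rc climbs with the collagen sum, from 1.02 CPM at 1054 to 7.5 CPM at 3700, and has another order along the sum of the other markers.

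Il17rd (chr14:27038941-27107286, plus strand) was the member with the lowest p. It had 74, 100 and 83 reads in control and 131, 124 and 136 reads after RA, or 5.18, 5.32 and 5.71 CPM compared to 7.28, 7.86 and 9.28 CPM. Every RA library was above every control library, under TMM scaling and under library size alone. The fold was 1.51 (95% interval 1.12 to 2.03), with a log2 fold change of 0.59 ± 0.18 (SE, edgeR unadjusted p = 0.0147, adjusted p = 0.755; exact permutation p = 0.1). The difference was present in both library sets, at 0.50 in set 1 and 0.76 in set 2 on the log2 scale. With library set as a covariate the estimate was 0.64 (edgeR unadjusted p = 0.0039, adjusted p = 0.113), so the call was not reached under either fit.

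The adaptor gene Traf3ip2 (chr10:39612934-39655307, plus strand) followed the library sets. It was at 11.1, 15.7 and 9.90 CPM in control and 14.6, 14.1 and 9.76 CPM after RA, with the 3 libraries of set 1 above the 3 of set 2. The log2 fold change was 0.07 ± 0.25 (SE, edgeR adjusted p = 0.952), and with library set as a covariate it was -0.12. Its direction therefore depended on the fit. Its exons share 293 bases (7.95%) with those of E130307A14Rik on the opposite strand, which had at most 74 reads in a library, and how the counting treated strand was not given in the sources used here.

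Ratios of chains within a library take out shared scaling. Per length, Il17rc stood at 0.184, 0.473 and 0.260 of Il17ra in control and at 0.291, 0.169 and 0.0744 after RA, with overlap between the groups (exact permutation p = 0.4). Thus Il17rc was the scarcer of the paired chains in each of the 6 libraries. Il17rd stood at 0.0806, 0.0816 and 0.0888 of Il17ra in control and at 0.120, 0.142 and 0.164 after RA. These groups did not overlap, and the log2 ratio differed by 0.75 (exact permutation p = 0.1). Il17rd reached 0.439, 0.172 and 0.342 of Il17rc in control and 0.414, 0.838 and 2.2 after RA (exact permutation p = 0.2), so RA 3 was the library in which Il17rd exceeded Il17rc.

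Reads of the IL-17 family ligands, of Ifng and of other IL-17 receptor chains were few. Over the 6 libraries Ifng had 1 read, Il17f 2, Il17c 16 and Il17d 40, of which 15 were in control 2. Il17rb, which encodes a receptor chain for IL-25, had 30 reads and Il17re, whose product pairs with IL-17RA for IL-17C, had 2 reads over the 6 libraries. None of these reached the test. Il17a, Il17b and Il25 were not analysed here.

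The IFNγ receptor showed no difference that held against the spread. Ifngr1 (chr10:19591949-19610229, plus strand), the ligand-binding chain, was at 127.0, 94.2 and 136.8 CPM in control and 108.2, 95.04 and 139.0 CPM after RA. The libraries of set 1 were the 3 lowest in both treatments together. The estimate on the log2 scale was -0.07 ± 0.20 (SE, edgeR adjusted p = 0.941) and turned to 0.09 with library set as a covariate. Ifngr2 (chr16:91547072-91565623, plus strand), the chain that brings in JAK2, was at 199.9, 160.3 and 184.8 CPM in control and 141.9, 156.0 and 179.6 CPM after RA. Its log2 fold change was -0.19 ± 0.14 (SE, edgeR adjusted p = 0.803), and RA 3 lay inside the control range. It was -0.10 with library set as a covariate and -0.09 without RA 1. Per length, Ifngr2 stood at 1.19, 1.29 and 1.02 of Ifngr1 in control and at 0.991, 1.24 and 0.977 after RA (exact permutation p = 0.4), so both chains were at similar levels in each library, and with the longest transcript as length the ratio ran from 0.736 to 0.969. Ifngr1 was 5.58 to 8.22 times Il17ra per length in control and 6.60 to 9.48 times after RA.

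JAK1 and JAK2 are the kinases of the IFNγ receptor. Jak1 (chr4:101152367-101265282, minus strand) was at 248.9, 286.4 and 273.9 CPM in control and 315.0, 320.1 and 290.0 CPM after RA. Each RA library was above each control library, although RA 3 exceeded control 2 by little, and the groups overlapped under scaling by library size alone. The log2 fold change was 0.19 ± 0.11 (SE, edgeR adjusted p = 0.795; exact permutation p = 0.1). Jak2 (chr19:29251828-29313080, plus strand) was at 69.8, 104.0 and 72.0 CPM in control and 73.4, 83.9 and 58.3 CPM after RA, with control 2 highest and RA 3 lowest. Its log2 fold change was -0.19 ± 0.21 (SE, edgeR adjusted p = 0.836), which turned to 0.03 without control 2, and with library set as a covariate it was -0.34 (edgeR unadjusted p = 0.0056, adjusted p = 0.139).

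Per length, Jak2 stood at 0.403, 0.522 and 0.378 of Jak1 in control and at 0.335, 0.376 and 0.289 after RA. The RA ratios were all below the control ratios, RA 2 by a narrow margin, with a log2 difference of -0.37 (exact permutation p = 0.1). This ratio does not depend on the scaling of the libraries. Stat3 (chr11:100885098-100939540, minus strand) was at 228.3, 203.1 and 218.9 CPM in control and 181.6, 185.5 and 210.8 CPM after RA. RA 3 lay inside the control range. The log2 fold change of Stat3 was -0.17 ± 0.12 (SE, edgeR adjusted p = 0.795), and 72 bases (0.756%) of its exons are shared with Stat5a on the opposite strand.

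**Figure D3:**
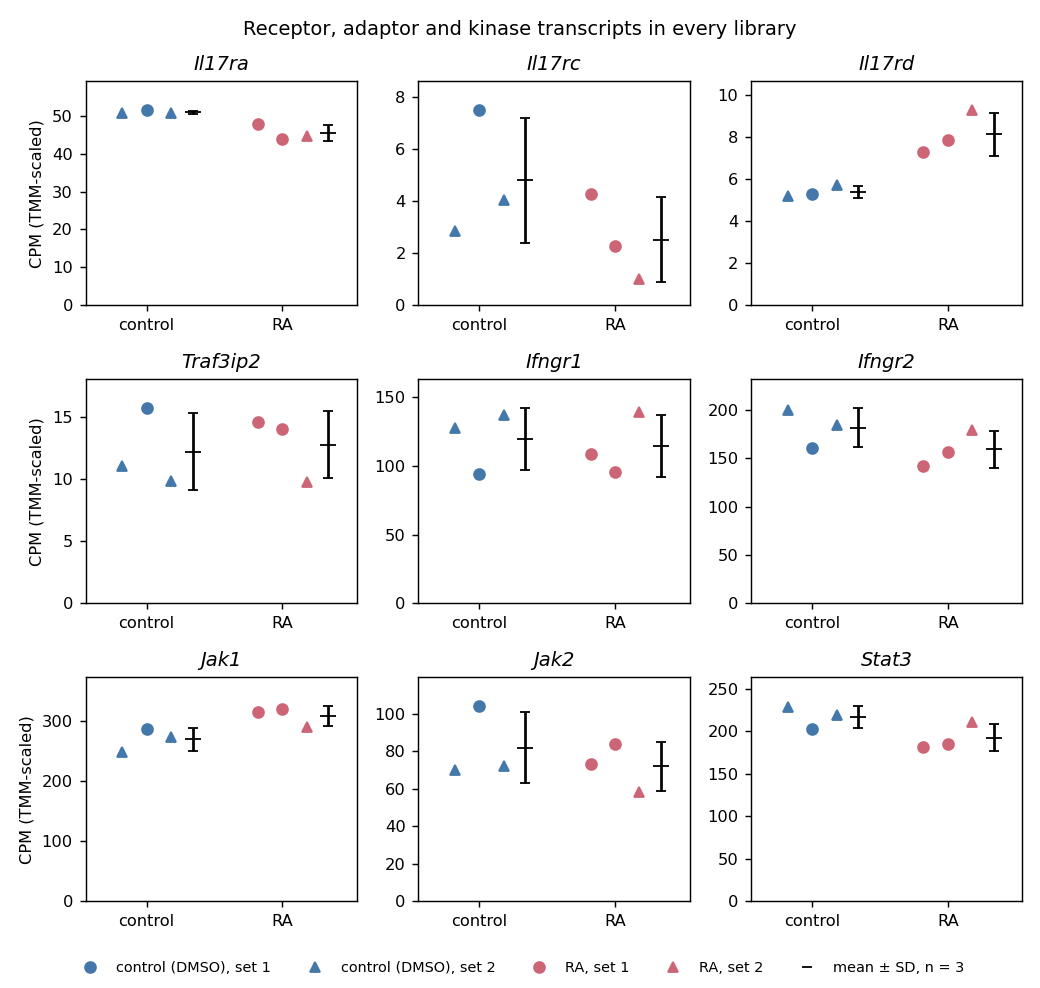
TMM-scaled CPM of the 9 genes in every library, control and RA side by side, with marker shape for library set and the mean ± SD (n = 3) at the right of each group; each vertical axis starts at 0. The groups are apart in the panels of Il17ra, Il17rd and Jak1, and in that of Ifngr1 the markers part by library set.

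Counted over the 9 genes, control and RA libraries did not overlap for 3 (33.3%): Il17ra lower after RA, and Il17rd and Jak1 higher. Over all genes tested 12.6% were apart in this way, 5.71% higher and 6.87% lower. Under library size alone the count was 1 of 9, Il17rd, and 12.2% of all genes. Library sets 1 and 2 were apart for 5 of the 9, against 47.7% of all genes tested. Traf3ip2 and Jak2 were higher in set 1 (23.4% of all genes), and Ifngr1, Ifngr2 and Stat3 were lower in set 1 (24.4% of all genes). Within the sets, each of the 9 genes had RA on the same side of control in both, against 42.0% of all genes tested. Ifngr1, Jak1 and Il17rd were higher (18.5% of all genes) and the other 6 were lower (23.5% of all genes). The sets hold 3 libraries each, and the within-set differences of Ifngr1 were only 0.11 and 0.08 on the log2 scale. With library set as a covariate 0 of the 9 were called, where 1.54% of all genes were (1.74% with no threshold on the fold), and 3 of the 9 (Il17rc, Il17rd and Jak2) had an unadjusted p under 0.05, where 15.1% of all genes had.

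**Figure D4:**
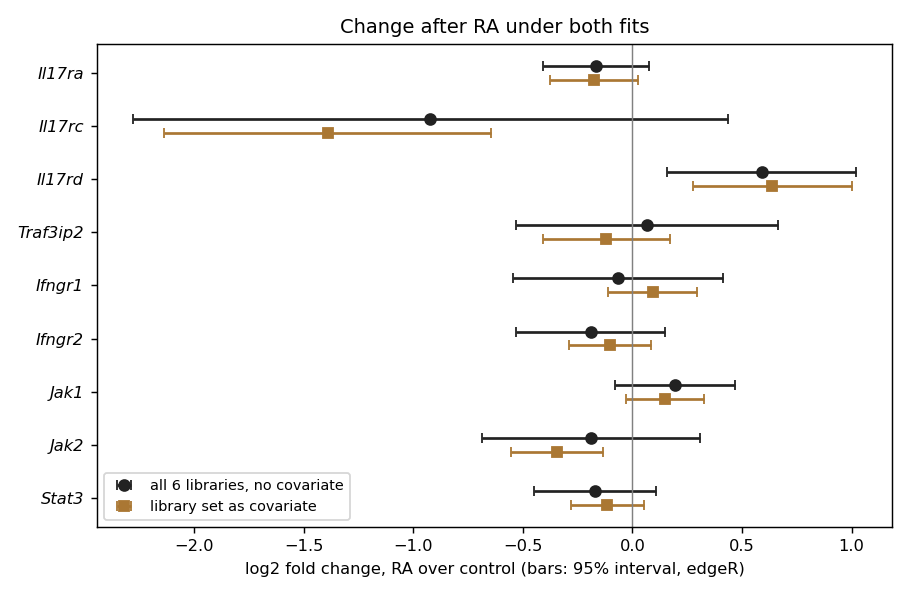
log2 fold change of RA over control for the 9 genes with 95% intervals from edgeR, without a covariate (circles) and with library set as a covariate (squares). Il17rd lies above 0 under both fits, Il17rc and Jak2 have intervals that clear 0 only with the covariate, and Il17rc has the widest interval, from -2.28 to 0.44.

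By their pattern over the 6 libraries, the genes most like Il17ra were Inhbb, Pdlim2 and Eid1, with Pearson r of log2 CPM of 0.986, 0.984 and 0.982, and 223 genes had r above 0.9. The genes most like Ifngr1 were Slc43a2, Col9a3 and Sft2d2, with r of 0.996, 0.995 and 0.995, and 1121 genes had r above 0.9. These are descriptions over 6 libraries that share the treatment and the library sets, and Col9a3 was below 2 CPM in each library.

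Downstream of the IL-17 receptor, the relay between receptor and NF-κB held 31 listed genes, of which 29 were tested. None was called, 1 had an unadjusted p under 0.05 upward and 2 downward (2.89% and 2.36% of all genes), and the median log2 fold change was -0.03 (0.01 with library set as a covariate). Ikbke, which encodes the kinase IKKε, was at 348.7, 319.7 and 339.7 CPM in control and 428.5, 451.6 and 459.4 CPM after RA (log2 fold change 0.41, edgeR adjusted p = 0.602), and RA was above control in every library. Its log2 fold change with library set as a covariate was 0.44 (edgeR adjusted p = 0.0324), below the 1.5-fold threshold. Zc3h12a, which encodes Regnase-1, an RNase that degrades inflammatory transcripts, was at 151.3, 166.5 and 129.0 CPM in control and 101.1, 95.7 and 120.8 CPM after RA (log2 fold change -0.49, edgeR adjusted p = 0.746). Cebpd, a transcription factor gene of the IL-17 response, had a log2 fold change of -0.34 (edgeR adjusted p = 0.795) with the groups apart. Traf6, the ubiquitin ligase recruited by Act1, had a log2 fold change of -0.03, and Nfkbiz and Cebpb, which encode nuclear regulators of IL-17 target genes, had -0.31 and -0.22, all 3 with overlapping groups.

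Of 18 IL-17 target genes 15 were tested, 0 were called, and the median log2 fold change was -0.30 (-0.49 with library set as a covariate). In that fit 7 had an unadjusted p under 0.05 downward and 1 upward, against 15.1% of all genes in either direction. Zc3h12a, Cebpd and Nfkbiz stand in this list too. RA was below control in both library sets for 7 of the 15 and above in both for 1, against 23.5% and 18.5% of all genes tested. The 1 was Mmp13, a collagenase gene, at 90.4, 124.7 and 116.6 CPM in control and 349.3, 403.1 and 177.1 CPM after RA (log2 fold change 1.49, edgeR adjusted p = 0.353). With library set as a covariate 3 of the 15 were called (1.54% of all genes), Mmp13 upward (edgeR adjusted p = 0.0332) and Il6 and Ccl7 downward (edgeR adjusted p = 0.00636 and 0.0181). Il6 was at 0.700, 11.6 and 0.619 CPM in control and 2.39, 2.73 and 0.136 CPM after RA, and Ccl7, which encodes a monocyte chemoattractant, was at 12.7, 136.1 and 12.9 CPM compared to 74.2, 54.0 and 3.68 CPM. Control 2, which also had the highest Il17rc and collagen sum, was the highest library for both.

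On the IFNγ side, all 16 relay genes were tested and 0 were called. None had an unadjusted p under 0.05 by edgeR (5.25% of all genes), and the median log2 fold change was -0.12. With library set as a covariate the median was -0.01. In that fit 1 gene had an unadjusted edgeR p under 0.05 upward and 2 downward (15.1% of all genes in either direction). Irf1 and Irf9, transcription factor genes induced by interferons, had log2 fold changes of 0.11 and -0.24. The feedback inhibitors Socs1 and Socs3 had -0.41 and -0.29, and Ptpn2, a phosphatase gene acting on JAK1, had 0.35, each with overlapping groups. Of 21 IFNγ target genes 19 were tested and 0 were called, with a median of -0.12 (-0.02 with the covariate). With the covariate 2 of them had an unadjusted edgeR p under 0.05 upward and 3 downward. Without the covariate Iigp1, an immunity-related GTPase gene, had the lowest p of this list. Its log2 fold change was 0.82 (edgeR unadjusted p = 0.0156, adjusted p = 0.775), and its groups were apart.

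Around STAT3, 20 of 20 receptor and regulator genes were tested and 0 were called, with a median log2 fold change of -0.19. With library set as a covariate the median was -0.04. At an unadjusted p under 0.05 there were 2 upward, Lifr and Osmr, and 1 downward, Stat5a (2.89% and 2.36% of all genes). Lifr, the receptor chain for leukemia inhibitory factor, was at 67.1, 51.7 and 78.0 CPM in control and 121.5, 125.4 and 103.2 CPM after RA (log2 fold change 0.83, edgeR adjusted p = 0.353). Osmr, the oncostatin M receptor chain, was at 28.6, 39.1 and 31.1 CPM in control and 61.3, 73.6 and 49.9 CPM after RA (log2 fold change 0.90, edgeR adjusted p = 0.353). Both groups of 3 were apart for both genes. Osmr was called with library set as a covariate (edgeR adjusted p = 0.0167), where 1.54% of all genes were. The shared chain Il6st had a log2 fold change of 0.28 with overlapping groups, and Stat5a had -0.32 (edgeR unadjusted p = 0.0431, adjusted p = 0.795). Of 9 ligand genes analysed 4 were tested, with 0 called and a median of -0.54. With library set as a covariate 1 was called, Il6, which also stands among the IL-17 target genes (1.54% of all genes called).

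**Figure D5:**
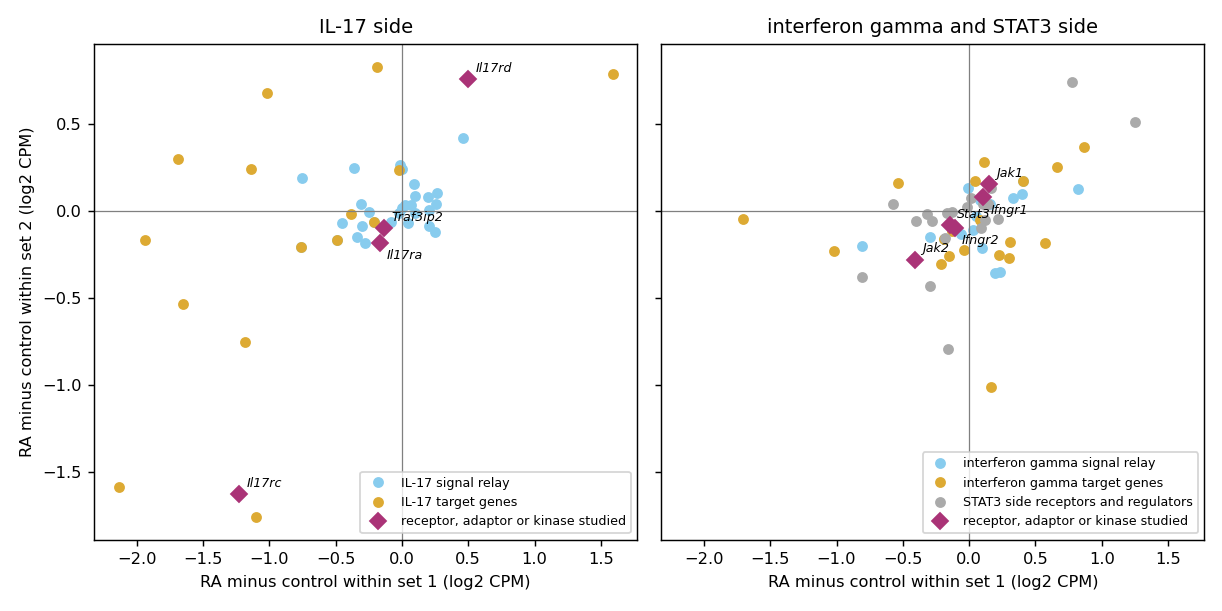
Difference of RA minus control in log2 CPM within library set 1 (horizontal) and within set 2 (vertical) for the 9 genes (diamonds, named) and the genes of the pathway lists (circles). All 9 diamonds fall in the lower left or upper right part, most near the center, while Il17rc lies at -1.23 and -1.62 and Il17rd at 0.50 and 0.76.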

How the data were processed

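RNA-seq of 3 control and 3 RA-treated cultures labelled as BMSCs was used, with groups and replicate numbers from the labels. The deposited values are raw counts from the authors, whole reads for each gene with no normalization. The submitters' processing notes name Bowtie2 2.2.3 and mm10; the counter, annotation and strand setting were not given in the sources used here. Coordinates and exon lengths came from GENCODE M21 (GRCm38), in which 25706 of the 25722 identifiers were found, and 24 names that had become dates were replaced.

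Counts were fitted in R 4.3.3 with edgeR 4.0.16 (TMM scaling, filterByExpr, quasi-likelihood F test, Benjamini-Hochberg over 13842 genes). Genes were called at an adjusted p under 0.05 with at least 1.5-fold change. DESeq2 1.42.0, other scalings and filters, each library left out, replicate number as a block, and library set as a covariate were alternatives. CPM are TMM-scaled, RPKM divide them by the union of exons, and principal components used log2 CPM with a prior count of 2. Single values were compared by exact two-sided permutation tests (scipy 1.17.1). The scripts were tested on simulated data. In a simulation of 3 RA against 3 control libraries over 13842 genes with 200 changed, the fit without a covariate called 0% of genes changed 1.5-fold or 2-fold and 79% of those changed 4-fold. At the smaller spread left by the covariate it called 31%, 68% and 97.5%. Replicates of a group differed by more than sampling noise. The chi-square per degree of freedom was 4.56 for control 1 and 3 and 28 for RA 1 and 2, the pairs within a library set. For pairs across the sets it was 76.9 to 83.1. Whether libraries of a set share a biological replicate was not tested.

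Named genes were the 9 genes, a fixed set of regulators (of which 1 gene is not reported here), and up to 3 genes per list and direction with the lowest unadjusted p under 0.05 and groups apart; Il6, Ccl7, Col1a1, Col1a2, Col3a1, Pdgfrb, Nt5e, Thy1, Ifng, Il17c, Il17d and Il17f were named after their values were seen. For 2 of the 9 genes, Il17ra and Traf3ip2, no promoter was printed or searched. The members and lists were chosen with earlier results of these data known.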

Additional observations from a re-analysis of the deposited data

How the results depend on the processing

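None of the 9 genes was called in any fit run: each library left out, replicate block, library set as a covariate, DESeq2, library size alone, upper-quartile scaling, both other filters and no fold threshold. Their median log2 fold change stayed negative, from -0.16 to -0.09 with a library left out. Over all genes, 6 were called, compared to 213 with the library set covariate, 136 by DESeq2, 20 with no filter, 4 with the replicate block, and 0 to 6 with a library left out (0 without control 1). The cause of these differences was not tested. The count of the 9 genes with groups apart was 3 (12.6% of all genes), and became 1 under library size alone (12.2%) and 9 within each library set, a looser criterion that 42.0% of all genes met. The log2 fold change of Traf3ip2 ran from -0.0668 to 0.305 with a library left out and was -0.119 with the covariate, that of Ifngr1 ran from -0.233 to 0.0508 and was 0.092 with the covariate, and that of Jak2 ran from -0.315 to 0.0347 (without control 2). That of Il17rc ran from -1.52 to -0.43. Replicate numbers did not pair the libraries, since the correlations of deviations of same-numbered libraries were -0.51, 0.343 and 0.572, and the replicate block changed no call of the 9 genes. Il17rc and Il17rd rested on 15 to 141 reads a library.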

Other observations

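The receptor of IL-10, another input to STAT3, parted by library set rather than by treatment. Il10ra was at 249.8, 96.05 and 245.8 CPM in control and 97.4, 115.1 and 254.1 CPM after RA, and the 3 libraries of set 1 were the lowest. Il10rb, the chain it pairs with, was at 199.0, 107.2 and 199.6 CPM in control and 117.6, 131.6 and 192.7 CPM after RA, in the same division. Il6ra, the IL-6 binding chain, was at 97.4, 56.4 and 100.5 CPM in control and 47.7, 55.5 and 98.5 CPM after RA. All 3 had overlapping treatment groups, and they were named after their values were seen. Among all genes tested 47.7% had the library sets apart, 24.4% with set 1 lower. Il6st, from the same list, had set 1 higher.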
